A study of Mus musculus with 16 samples.

Results

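Dual-specificity phosphatases remove phosphate from both tyrosine and serine or threonine residues of their substrates, and the MAP kinase phosphatases among them switch MAP kinases off. The 10 genes described here are Dusp1, Dusp4, Dusp5, Dusp6, Dusp8, Dusp10, Dusp14, Dusp16, Dusp26 and Dusp27, matched by symbol among 54108 gene rows of a count table from mouse heart ventricle. They were selected on a list of names that was drawn up with the genotype differences of these libraries known. Their differences between genotypes are therefore given as a description, with no p-value.

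The libraries come from 8-week-old mice with floxed Rbpms alleles (Rbpms fl/fl). The conditional knockout (cKO) also carries a Cre recombinase under the Myh6 promoter (Myh6-Cre, Rbpms fl/fl), which is active in heart muscle cells, and the control carries no Cre. The product of Rbpms binds RNA, and the series title links it to contraction and splicing. Each genotype had 4 libraries, of which replicate 3 was female and the other 3 were male, with no other treatment named in the labels. No library used here carries Cre without the floxed alleles, so an effect of Cre itself cannot be told apart from that of losing Rbpms, and newborn ventricles were not analysed here. Whether each library is a separate animal or a pool is not stated in the labels, so p-values reflect library-to-library spread, which may in part be technical.

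MAP kinases (the ERK, JNK and p38 families) are activated by paired phosphorylation of a threonine and a tyrosine, and a dual-specificity phosphatase reverses both. Several of these phosphatase genes are themselves transcribed when the pathway is active, which makes them feedback inhibitors. In the heart, ERK, JNK and p38 signalling is studied for its part in growth of heart muscle cells and in the response to load.

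The libraries held 20190334 to 24540433 counts. Rbpms itself (chr8:33782643-33929863 in GRCm38) fell from 160 ± 42.8 CPM in controls to 31.8 ± 5.82 CPM in cKO (mean ± SD, n = 4 each), 5.02-fold lower (edgeR quasi-likelihood test, adjusted p = 3.54e-05). CPM is a gene's share of its library's counts on the usual CPM scale, adjusted for library composition. Heart muscle markers were abundant in every library, with a sum over 10 markers of 37624 to 48940 CPM in controls and 31941 to 37978 CPM in cKO. Of these 10, 0 were called higher and 2 lower in cKO, with a median log2 difference of -0.20. The 2 were Tnni3 (log2 difference -0.47, edgeR, adjusted p = 0.00288) and Ryr2 (-0.68, edgeR, adjusted p = 0.00114). All 10 fibroblast markers were higher in cKO, and their summed level was 2597.3 to 3511.4 CPM in controls and 5428.3 to 6329 CPM in cKO. Of the other marker lists, endothelial cells had 0 higher and 1 lower of 10, macrophages 1 and 0 of 10, smooth muscle and pericytes 1 and 1 of 10, and lymphocytes 0 and 0 of 6 tested. In bulk tissue, fewer cells of a type and less RNA per cell cannot be told apart.

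The stretches before the transcription starts of Dusp8, Dusp1 and Dusp6 are shown because Dusp8 and Dusp1 share a motif and Dusp6 holds none of the motifs searched. Any relation of the motifs to the genotype differences was not tested. Each line gives the 250 bases before the start, from RefSeq (GRCm38.p6), in the direction of transcription. Only a single start per gene was used. The windows of Dusp8 and Dusp1 lie inside the annotated gene spans given further below. Capitals mark the cyclic AMP response element (CRE, letters TGACGTCA, the site that CREB-family factors bind). Dusp8 lies at chr7:142095285-142095534, minus strand, Dusp1 at chr17:26508473-26508722, minus strand and Dusp6 at chr10:99262981-99263230, plus strand.
Dusp8: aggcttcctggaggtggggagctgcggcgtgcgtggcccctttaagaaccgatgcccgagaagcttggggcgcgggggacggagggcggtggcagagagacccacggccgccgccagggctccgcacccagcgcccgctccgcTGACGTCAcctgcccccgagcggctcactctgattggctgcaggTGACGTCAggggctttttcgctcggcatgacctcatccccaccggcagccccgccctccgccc
Dusp1: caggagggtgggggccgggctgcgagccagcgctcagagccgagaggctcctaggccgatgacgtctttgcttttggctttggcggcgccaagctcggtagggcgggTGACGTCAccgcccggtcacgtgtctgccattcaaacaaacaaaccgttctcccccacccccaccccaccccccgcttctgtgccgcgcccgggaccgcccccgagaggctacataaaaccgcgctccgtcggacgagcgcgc
Dusp6: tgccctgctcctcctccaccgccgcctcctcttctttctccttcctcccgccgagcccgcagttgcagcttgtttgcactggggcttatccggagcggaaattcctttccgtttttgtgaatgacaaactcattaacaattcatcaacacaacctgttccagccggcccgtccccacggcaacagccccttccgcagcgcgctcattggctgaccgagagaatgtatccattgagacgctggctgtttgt

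Dusp8 held 2 CRE matches, starting 107 and 63 bases before the start, and Dusp1 held 1, starting 143 bases before it. Of 32851 promoters of the same length, 1.55% held this motif. The sequence before Dusp5 held 2 matches to the CArG box, the site of serum response factor, starting 82 and 72 bases before the start, and 1.47% of promoters held it. The Dusp27 promoter held a match each to the ETS motif CCGGAAG (118 bases before the start, 6.91% of promoters), the TEAD motif GGAATG (89 bases, 12.6%) and the MEF2 site (46 bases, 0.508%). Both strands were searched, also for the AP-1 motif TGANTCA (6.75% of promoters) and the TATA box TATAAA (12.4%). None of these 7 motifs was found in the windows of Dusp6, Dusp10, Dusp14 and Dusp16, and 8 of the 10 genes had an entry in the promoter table. Other annotated starts of these genes were not searched, and the windows of Dusp10 and Dusp14 also lie inside their gene spans. As spelled here, CRE and AP-1 matches cannot overlap each other, while CArG, MEF2 and TATA matches can. A match describes letters only, and factor binding was not measured.

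Per kilobase of exon, Dusp1 and Dusp27 were the most abundant in controls, at 21.8 and 21.6 CPM per kb, and their ranges overlapped. Dusp8 followed at 9.06 CPM per kb, then Dusp6 at 8.11 and Dusp16 at 7.46, with Dusp6 overlapping both neighbours. Dusp10 (4.58), Dusp5 (2.97) and Dusp4 (0.958 CPM per kb) came next, each clear of the genes beside it. Dusp26 at 0.513 and Dusp14 at 0.229 CPM per kb were lowest and overlapped. In cKO the order began with Dusp27 at 24.9 and Dusp1 at 20.9 CPM per kb. Dusp6 and Dusp8 followed at 12.2 and 12.1 CPM per kb and overlapped, Dusp16 was at 7.11, and Dusp26 had moved up to 6.61 CPM per kb, overlapping both Dusp16 and Dusp10 (4.51). Dusp5 (2.92), Dusp4 (1.68) and Dusp14 (0.276) were the lowest of the 10.

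**Figure D1:**
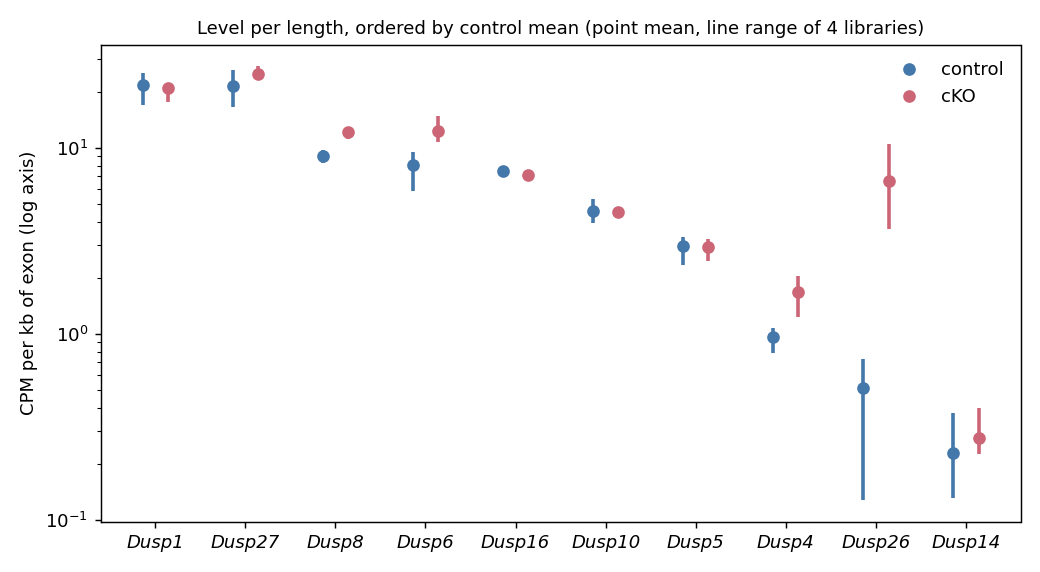
Mean CPM per kb of exon (points, log axis) with the range of 4 libraries (lines) for the 10 genes, controls in blue and cKO in red, ordered by the control mean. Dusp26 moves from 0.513 to 6.61 CPM per kb, while Dusp1, Dusp5, Dusp10 and Dusp16 lie at nearly the same level in both genotypes.

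Across all 16051 genes tested with edgeR's quasi-likelihood test, 19.3% passed an adjusted p of 0.05, 9.64% as higher and 9.64% as lower in cKO. All 10 phosphatase genes passed the filter on low counts. Dusp4, Dusp6, Dusp8 and Dusp26 were past the threshold as higher in cKO, 0 were past it as lower, and the same 4 had no overlap between the groups (23.5% of all tested genes had none). Since the genes were chosen with this contrast known, nothing is read from these counts. The summed fibroblast markers separated the genotypes in the same way, and their part in these 4 differences was not tested. The median log2 difference, cKO minus control, was 0.25 over the 10 genes and 0.0053 over all tested genes. The median of the 10 was 0.09 without control replicate 3, 0.14 without cKO replicate 4, 0.13 with males only and 0.37 without control replicate 4.

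The nuclear inducible phosphatases are Dusp1, Dusp4 and Dusp5. Dusp1 (chr17:26505590-26562128, minus strand) is the classic immediate-early MAP kinase phosphatase and acts mainly on p38 and JNK. Its level was 80.4, 83.4, 56.3 and 68.7 CPM in control replicates 1 to 4 and 70.7, 74.0, 58.5 and 73.8 CPM in the cKO replicates. The groups overlapped almost fully, the female library was the lowest of each genotype, and the log2 difference was -0.06 ± 0.12 (SE). The annotated exons of Dusp1 share 11 bases with Ergic1 on the other strand.

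Dusp4 (chr8:34807297-34819894, plus strand) acts on ERK and JNK in the nucleus. It stood at 2.76, 2.16, 2.65 and 2.93 CPM in controls, from 44 to 63 counts a library, and at 4.72, 5.58, 4.75 and 3.35 CPM in cKO, from 78 to 127 counts. Every cKO library lay above every control library, and cKO replicate 4 was nearest to the controls. The mean was 1.75-fold higher in cKO, with a log2 difference of 0.81 ± 0.20. Dusp5 (chr19:53529109-53542431, plus strand), a nuclear phosphatase selective for ERK, was at 8.02, 8.13, 7.41 and 5.80 CPM in controls and 7.41, 6.11, 7.36 and 7.95 CPM in cKO. The groups overlapped, with a log2 difference of -0.03 ± 0.15. An antisense gene shares 547 bases (22.1%) of the annotated exons of Dusp5, and the strand setting of the counting is not given in the sources used here, so reads of the pair may be mixed.

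Dusp6 (chr10:99263231-99267489, plus strand) is a cytoplasmic phosphatase selective for ERK and a widely used marker of ERK output. Controls held 24.8, 29.5, 18.4 and 28.9 CPM, and cKO libraries held 46.4, 37.9, 33.5 and 35.2 CPM. The lowest cKO library lay above the highest control, and the female library was again the lowest of each genotype. The mean was 25.4 ± 5.14 CPM in controls and 38.2 ± 5.75 CPM in cKO (SD, n = 4 each), 1.51-fold higher, with a log2 difference of 0.59 ± 0.15. Without cKO replicate 1, the highest of the 8, the log2 difference was 0.48 and the call was lost.

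Dusp8, Dusp10 and Dusp16 prefer JNK and p38 to ERK. Dusp8 (chr7:142079490-142095843, minus strand) was at 47.2, 43.6, 40.2 and 45.5 CPM in controls and 54.0, 62.7, 57.2 and 61.8 CPM in cKO. Both groups were tight, with coefficients of variation of 6.82% and 6.92%, and they did not overlap. The mean was 1.34-fold higher in cKO, with a log2 difference of 0.42 ± 0.08. Of its annotated exons, 66 bases are shared with a transcript on the other strand.

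Dusp10 (chr1:184013302-184075636, plus strand) was at 12.7, 16.2, 14.9 and 12.0 CPM in controls and 13.9, 13.5, 14.6 and 12.8 CPM in cKO. The cKO libraries all lay inside the control range, and the log2 difference was -0.03 ± 0.12. Dusp16 (chr6:134715468-134792625, minus strand) held 57.4, 58.3, 58.2 and 58.8 CPM in controls and 56.4, 57.5, 55.0 and 52.9 CPM in cKO. It varied the least of the 10 genes among controls, with a coefficient of variation of 0.987%. The groups touched, with 1 cKO library just above the lowest control, and the log2 difference was -0.07 ± 0.06. The 3 genes of this subgroup thus had a called difference in Dusp8 and differences within about their SE in Dusp10 and Dusp16.

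Dusp14, Dusp26 and Dusp27 are atypical members that lack the kinase-binding domain of the classic MAP kinase phosphatases. Dusp14 (chr11:84048041-84069261, minus strand) was barely detected, at 10, 7, 6 and 14 counts in controls and 11, 10, 12 and 18 counts in cKO. The log2 difference of 0.28 ± 0.40 was smaller than its error, so no difference of that size was detectable at this depth. It ran from 0.05 without cKO replicate 4 to 0.61 without control replicate 4.

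Dusp26 (chr8:31089471-31097047, plus strand) encodes a small phosphatase best known from brain and neuroendocrine tissue. Controls held 37, 6, 27 and 31 counts, or 1.68, 0.294, 1.14 and 1.62 CPM. The cKO libraries held 362, 304, 610 and 197 counts, or 15, 13.4, 24.1 and 8.47 CPM. The lowest cKO library was well above the highest control, and the female was the highest of the cKO libraries. The mean rose from 1.18 ± 0.64 to 15.2 ± 6.55 CPM (SD, n = 4 each), 12.8-fold, with a log2 difference of 3.68 ± 0.41. Dusp26 was also the most variable of the 10 genes within a genotype, with a coefficient of variation of 54.1% in controls and 43.0% in cKO.

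Neuronal and Schwann cell markers are given beside Dusp26 because of its known tissues. Of 9 tested, 2 were higher, S100b among them, and Dbh was lower in cKO, and the sum over the 12 listed markers was 39.061 to 42.06 CPM in controls and 50.015 to 57.49 CPM in cKO. None of these markers was at 0 in all libraries, and Snap25 was at 0 in every cKO library. The fibroblast marker sum also separated the genotypes, as given above, and the part of either cell type in the Dusp26 difference was not tested.

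Dusp27 (chr1:166098148-166127922, minus strand) encodes a pseudophosphatase, a relative without catalytic activity, found in striated muscle. It was at 87.2, 88.9, 67.0 and 106 CPM in controls and 99.7, 111, 95.5 and 98.0 CPM in cKO. The groups overlapped through control replicate 4, and the log2 difference was 0.21 ± 0.12. Control replicate 4 also held skeletal muscle transcripts that were at or near 0 elsewhere, with Myh4 at 58.2 CPM against at most 0.308 in the other 7 libraries, and Myh1 at 11.2 CPM against at most 0.277. The sum over the 12 skeletal muscle markers, of which Tnnc2 was listed at 0 in every library, was 851.52 to 1345.5 CPM in controls. In cKO it was 722.81 to 803.01 CPM, with 1 of 7 tested higher and 1 lower. The sum was mostly Ckm, the marker called lower, at 811.79 to 1131.7 CPM in controls and 475.85 to 563.95 CPM in cKO. Unlike Myh4 and Myh1, Ckm was abundant in every library, so the sum is not read as skeletal muscle content. The marker called higher was Mybpc2, at 19.7 to 50.2 CPM in controls and 151 to 214 CPM in cKO. The part of the skeletal muscle markers in the Dusp27 values was not tested. The log2 difference of Dusp27 was 0.32 without control replicate 4, 0.10 without control replicate 3 and 0.13 with males only.

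**Figure D2:**
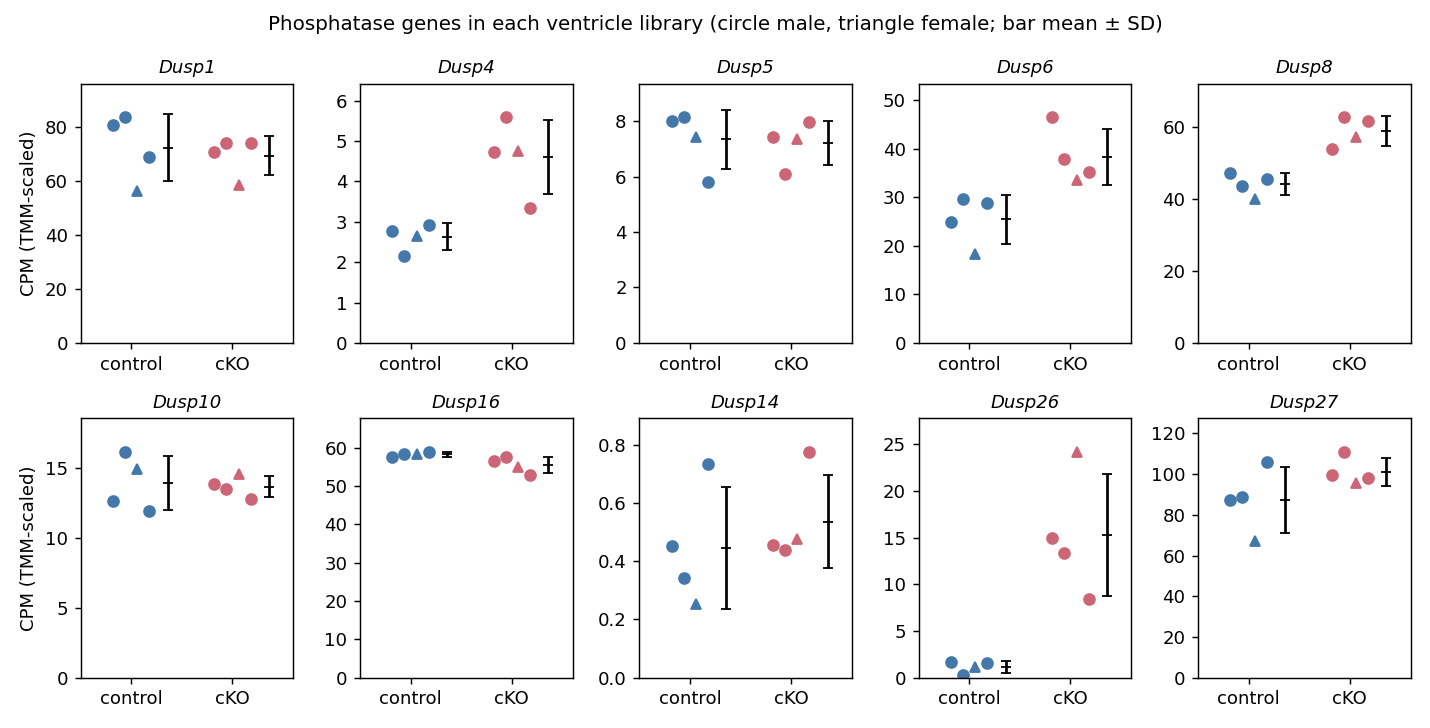
CPM of the 10 genes in each library by genotype (control blue, cKO red, circles males, triangles females), with mean ± SD of 4 libraries as a black bar beside each group and every axis starting at 0. Dusp4, Dusp6, Dusp8 and Dusp26 show groups that do not overlap, and the other 6 genes overlap.

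The genes whose log2 CPM ran closest to each called phosphatase over the 8 libraries were taken by Pearson's r among the 14033 genes whose mean CPM reached 1. For Dusp26 these were Podn, Fbln5 and Lrp1, each with r = 0.99. For Dusp4 they were Gdf6, Htra3 and 3632451O06Rik, each at 0.98, and for Dusp6 they were Sod3, Zfp423 and Flrt3, each at 0.98. Dusp8 was followed most closely by Rpgrip1l (0.98), Dok5 (0.97) and Ptk7 (0.97). In all 4 phosphatase genes the genotypes are separate, so these values describe the shared genotype difference as well as library spread.

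Sex was not used to choose the genes, and its term was tested with genotype as a covariate, for 2 female against 6 male libraries. With edgeR, 0 of the 10 phosphatase genes passed an adjusted p of 0.05, against 0.486% of all tested genes. Before adjustment, 3 of the 10 had a p under 0.05. The share of all genes under that unadjusted threshold is not given here, so nothing is read from this count. Those 3 genes were Dusp1, Dusp6 and Dusp27, and each had its lowest value in the female of both genotypes. Dusp1 averaged 57.4 CPM in the females and 75.2 CPM in the males, a log2 difference (female minus male) of -0.39 ± 0.09 (edgeR, adjusted p = 0.1045). For Dusp6 the averages were 25.9 and 33.8 CPM, with -0.41 ± 0.13 (edgeR, adjusted p = 0.2035). For Dusp27 they were 81.2 and 98.4 CPM, with -0.29 ± 0.11 (edgeR, adjusted p = 0.2936).

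The female libraries thus lay below all males of their genotype for these 3 genes, without passing the adjusted threshold. DESeq2 called Dusp1 (adjusted p = 0.01667), and edgeR without a filter on low counts called Dusp1, Dusp6 and Dusp26, the last as higher in females. Among 144 pathway genes outside the 10, Map3k11, a kinase upstream of JNK, was the only 1 called by sex, lower in females by a log2 difference of -0.56 ± 0.09 (edgeR, adjusted p = 0.0249). Without cKO replicate 1 that call was lost, at -0.56.

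**Figure D3:**
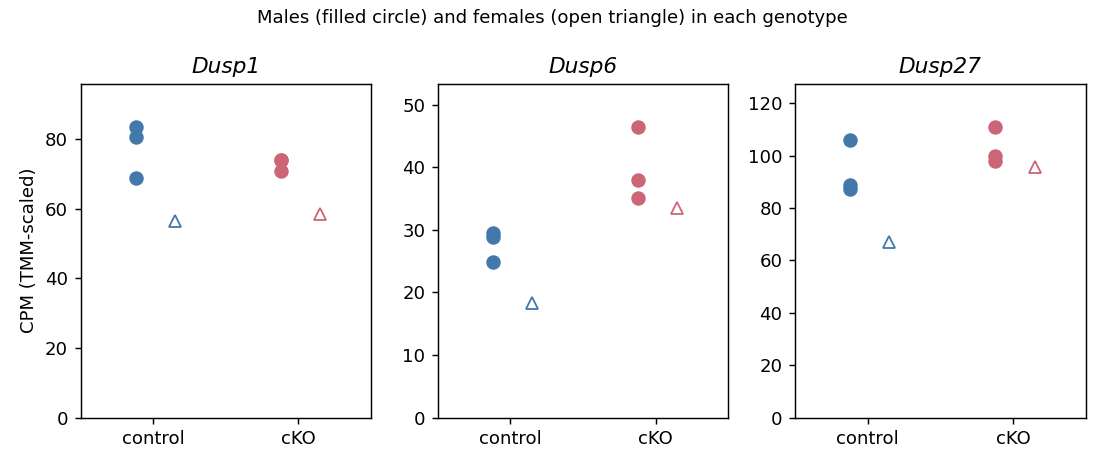
CPM of Dusp1, Dusp6 and Dusp27 by genotype and sex, with males as filled circles, females as open triangles and axes from 0. In each panel the female library (56.3 and 58.5 CPM for Dusp1 in control and cKO) lies below the 3 males of its genotype.

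Immediate-early genes, which are transcribed within minutes of MAP kinase activation or of tissue handling, were set against the phosphatases within genotype. The mean log2 CPM of 22 such genes ran from 3.47 to 3.79 in controls and from 3.70 to 4.22 in cKO, highest in the cKO female. The deviation of each phosphatase from its genotype mean was compared with that of the list over the 8 libraries, by exact permutation within genotype (576 arrangements, two-sided, 10 relations). By Pearson's r the largest values were for Dusp5 (r = 0.55, exact permutation p = 0.198, adjusted 0.9618, Spearman's rho = 0.38, p = 0.326) and Dusp10 (r = 0.48, p = 0.168, adjusted 0.9618, rho = 0.33, p = 0.316). By Spearman's rho the largest value was for Dusp26 (rho = 0.52, exact permutation p = 0.226, adjusted 0.9838), whose r was 0.17. Dusp5 and Dusp10 each deviated in the direction of the list in 6 of 8 libraries. Leaving out cKO replicates 3 and 2, farthest from the list's median, gave r = 0.52 for Dusp5 and 0.46 for Dusp10. For Dusp1, itself an immediate-early gene, r was -0.07 (exact permutation p = 0.863, rho = 0.00, p = 1), and 0.48 without those 2 libraries. None of the 10 relations passed the threshold, and r for the other 7 genes lay between -0.37 and 0.17.

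Genes of the pathway outside the 10 were followed in 9 lists, with 161 genes in the table and 144 tested. Of these, 25 rose and 20 fell in cKO, together 31.2% against 19.3% of all tested genes, and their median log2 difference was 0.04. The lists were written with earlier results of these data known.

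Among 14 other dual-specificity phosphatases tested, 1 rose and 1 fell, with a median log2 difference of 0.07. Dusp18, a small phosphatase found at mitochondria, rose from 126, 130, 94.1 and 118 CPM in controls to 153, 158, 160 and 162 CPM in cKO. The groups were separate, and the difference was 0.44 ± 0.10 (edgeR, adjusted p = 0.00884). Ptpmt1, a mitochondrial lipid phosphatase of cardiolipin synthesis, fell by 0.40 ± 0.10 on the log2 scale (adjusted p = 0.0174). Of its annotated exons 45.0% overlap Kbtbd4 on the other strand, and the call was lost without cKO replicate 1 (log2 difference -0.38). Dusp19 differed by 0.41 ± 0.13 (adjusted p = 0.0542, and called without cKO replicate 1 at 0.50), and Dusp23 by -0.50 ± 0.19 (adjusted p = 0.0847). Dusp7, like Dusp6 a cytoplasmic ERK phosphatase, was named after its values were seen. It went from 77.2 ± 8.95 to 62.5 ± 8.66 CPM, a log2 difference of -0.30 ± 0.11 (adjusted p = 0.0868), opposite in sign to that of Dusp6.

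**Figure D4:**
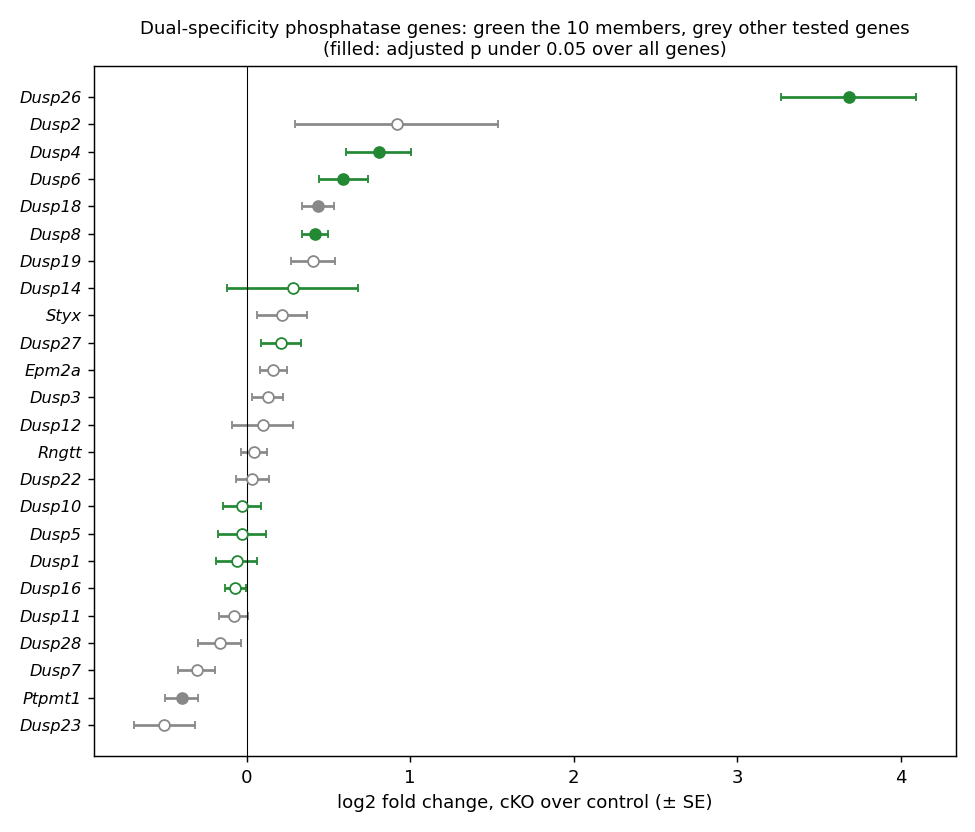
Log2 fold change (cKO over control, x axis) with its SE for the 10 genes (green) and the 14 other tested dual-specificity phosphatases (grey), filled where the adjusted p is under 0.05. Dusp26 stands farthest right at 3.68, and most of the family lies near 0.

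The MAP kinases themselves moved both ways, with 2 of 12 higher, 3 lower and a median log2 difference of -0.07. Mapk4, the atypical kinase ERK4, rose from 5.57, 6.42, 7.33 and 6.38 CPM to 18.7, 18.6, 23.7 and 15.7 CPM, 2.98-fold (edgeR, adjusted p = 4.73e-05). Mapk12, the p38 gamma form of striated muscle, rose 1.57-fold, from 38.4 ± 4.82 to 60.4 ± 6.90 CPM (SD, n = 4 each; edgeR, adjusted p = 0.00149). The cKO libraries of both genes lay above all controls. Mapk10, a JNK, fell from 37.5 ± 5.74 to 24.2 ± 4.92 CPM, 1.55-fold lower (edgeR, adjusted p = 0.0109). Mapk9, a further JNK, was called lower at a log2 difference of -0.22 ± 0.07 (edgeR, adjusted p = 0.0398), and the call was lost without any of the 8 libraries in turn, at -0.24 to -0.20. That call was also lost with total counts only (-0.14), upper-quartile scaling (-0.20), no filter on low counts (-0.23) and males only (-0.20). Mapk3, which encodes ERK1, and Mapk8 did not pass, at 0.07 ± 0.08 (edgeR, adjusted p = 0.600) and -0.03 ± 0.07 (adjusted p = 0.809). Mapk14, the main p38, was at -0.27 ± 0.09 (adjusted p = 0.0528).

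Of 7 MAP kinase kinases, 0 rose and 1 fell. Map2k6, an activator of p38, went from 12.1, 13.2, 12.7 and 14.5 CPM in controls to 7.95, 7.82, 7.04 and 7.44 CPM in cKO, 1.73-fold lower with separate groups (edgeR, adjusted p = 0.000587). The ERK activators Map2k1 and Map2k2 did not pass, at 0.06 ± 0.09 and -0.17 ± 0.10. A level further up, 5 of 24 MAP3 kinases and partners rose and 5 fell. Map3k7, the kinase TAK1, rose 1.36-fold and its binding partner Tab3 fell 1.32-fold (edgeR, adjusted p = 0.00256 and 0.00639). Map3k14, which feeds the non-canonical NF-kappaB pathway, rose 1.70-fold, and Taok3 rose 1.45-fold (edgeR, adjusted p = 0.00479 and 0.00671).

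Of 22 genes that feed Ras and ERK, 2 rose and 1 fell, and each of these 3 calls was lost when certain single libraries were left out. The adaptor Gab1 was at -0.27 ± 0.07 (edgeR, adjusted p = 0.0200, lost without control replicate 1, cKO replicate 1 or cKO replicate 4, at -0.25, -0.27 and -0.27). The GTPase Rras was at 0.31 ± 0.09 (adjusted p = 0.0269) and the adaptor Gab2 at 0.30 ± 0.09 (adjusted p = 0.0385). Rras was lost without control replicates 1 or 3 or cKO replicates 1, 3 or 4, with 0.26 to 0.33 over all single libraries left out. Gab2 was lost without control replicates 2 or 3 or any cKO replicate, with 0.22 to 0.34.

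ERK feedback inhibitors and output genes, the list closest in kind to Dusp6, had 5 of 16 higher, 1 lower and a median log2 difference of 0.24. The ETS factors Etv1, Etv4 and Etv5, widely used with Dusp6 as readouts of ERK activity, all rose. Etv5 went from 30.1, 41.7, 36.9 and 65.2 CPM in controls to 87.3, 99.2, 80.7 and 86.6 CPM in cKO, 2.04-fold higher (edgeR, adjusted p = 0.00295). Etv1 rose 1.61-fold, from 34.7 ± 4.77 to 55.8 ± 6.93 CPM (SD, n = 4 each; edgeR, adjusted p = 0.00169). Etv4, at 6 to 14 counts in controls and 26 to 71 in cKO, rose 4.03-fold (edgeR, adjusted p = 0.00360). The 3 factors had separate groups, as had Dusp6 and 23.5% of all tested genes. The factors were named for their small adjusted p and Dusp6 was chosen with this contrast known, so nothing is read from this. Hbegf, a growth factor that binds the EGF receptor, rose 1.64-fold (edgeR, adjusted p = 0.00344).

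The sprouty and spred inhibitors of Ras and ERK, named after their values were seen, gave mixed values. Spred3 rose from 2.35 ± 0.24 to 4.63 ± 1.02 CPM (edgeR, adjusted p = 0.00656), and Spry1 was at 0.34 ± 0.11 (adjusted p = 0.0518). Spry2, Spry4, Spred1 and Spred2 did not pass, at -0.26 ± 0.10, 0.04 ± 0.13, 0.19 ± 0.08 and -0.15 ± 0.09. The single gene of the list that fell was Epha4, an ephrin receptor, at -0.60 ± 0.12 (edgeR, adjusted p = 0.00551).

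Of the 22 immediate-early genes 8 rose and 3 fell, with a median log2 difference of 0.22. Ier5 rose 2.08-fold, Myc 2.17-fold, Egr3 3.72-fold and Cyr61 1.67-fold (edgeR, adjusted p = 0.000526, 0.0015, 0.00164 and 0.00436). Egr2, Egr1, Btg2 and Jun, named for their calls, rose 3.01-, 1.91-, 1.36- and 1.24-fold (edgeR, adjusted p = 0.0121, 0.0243, 0.0241 and 0.0260). Their calls were not followed through the alternative fits. Fos, named after its values were seen, did not pass at -0.62 ± 0.36 (edgeR, adjusted p = 0.275). The 3 that fell were the nuclear receptors Nr4a1 (-1.22 ± 0.25) and Nr4a3 (-1.08 ± 0.34) and the flow-responsive factor Klf2 (-0.38 ± 0.10), also named for their calls. Nr4a3 lost its call without control replicate 1 (-0.76), 2 (-1.07) or 3 (-1.11) and without cKO replicate 1 (-1.13), 2 (-0.91) or 4 (-1.08), and Klf2 lost it without cKO replicate 2 (-0.34). Nr4a3 also lost it with upper-quartile scaling (-1.07), total counts only (-1.01), limma-voom (-0.99) and a robust quasi-likelihood fit (-1.08). With males only both genes lost their calls, at -1.27 for Nr4a3 and -0.35 for Klf2. Dusp1 and Dusp5, inducible by the same stimuli as many of these genes, were at -0.06 ± 0.12 and -0.03 ± 0.15.

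Among 12 other phosphatases that act on MAP kinases or their activators, 1 rose and 3 fell. Ppm1l, a phosphatase that acts on TAK1, fell from 164 ± 13.0 to 108 ± 2.21 CPM, 1.51-fold lower with separate groups (edgeR, adjusted p = 0.000321). Ppp2r1a, the scaffold subunit of protein phosphatase 2A, fell by 0.32 ± 0.08 on the log2 scale (adjusted p = 0.0134). Ppm1b was at 0.30 ± 0.08 (adjusted p = 0.0237) and Ppp2r5a at -0.24 ± 0.07 (adjusted p = 0.0356). These last 2 calls were each lost when certain single libraries were left out, with 0.25 to 0.34 for Ppm1b (lost without control replicates 1 or 2 or cKO replicates 2 or 3) and -0.28 to -0.21 for Ppp2r5a (lost without control replicates 1 or 2 or cKO replicates 2, 3 or 4).

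Among 15 kinases downstream of the MAP kinases and their scaffolds, 1 rose and 2 fell. Rps6ka5, the nuclear kinase MSK1 that ERK and p38 activate, fell 1.51-fold (edgeR, adjusted p = 0.00305). Mapkapk3, a target of p38, fell 1.25-fold (adjusted p = 0.00813), and the call was lost with total counts only, at a log2 difference of -0.24. Mknk2, a kinase of the translation factor eIF4E, was at 0.43 ± 0.12 (adjusted p = 0.0299), with 0.36 to 0.52 when single libraries were left out, and lost its call without control replicates 1 or 2 or cKO replicates 1, 2 or 3.

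**Figure D5:**
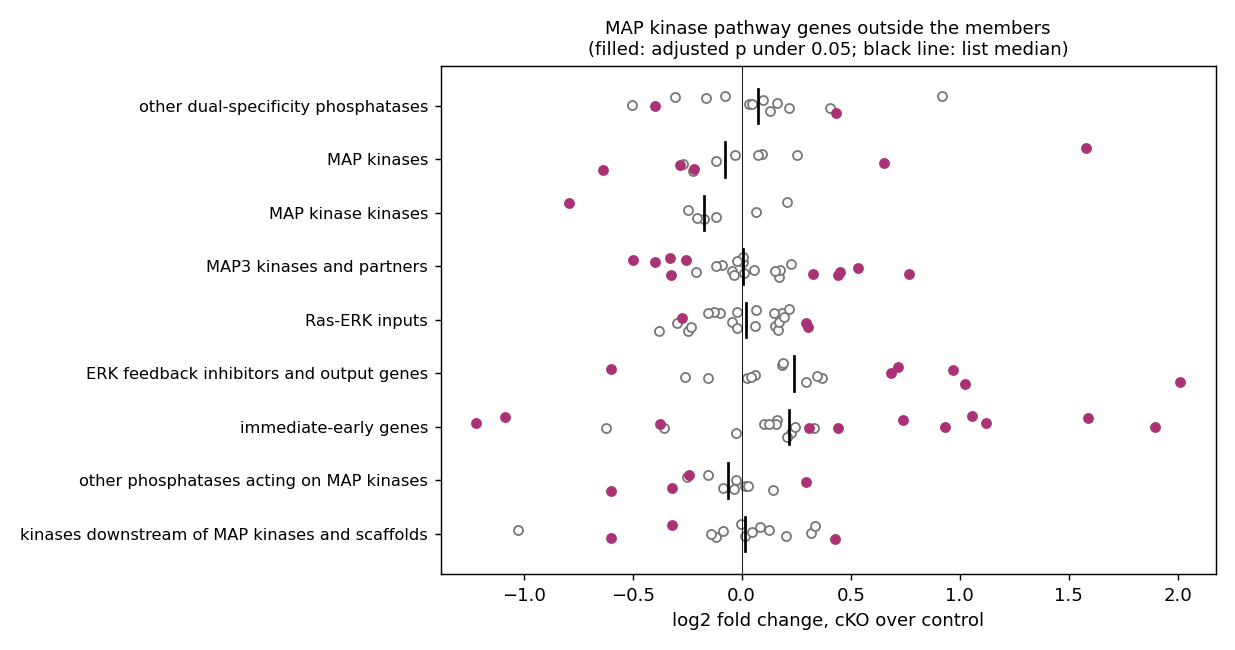
Log2 fold change (cKO over control, x axis) of each tested pathway gene outside the 10, by list, filled where the adjusted p is under 0.05, with the list median as a black line. The medians lie between -0.17 (MAP kinase kinases) and 0.24 (ERK feedback inhibitors and output genes).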

How the data were processed

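The authors deposited whole-number read counts per gene symbol for 8 ventricle libraries, 1 column each. Per the labels' protocols, libraries were stranded and made from polyadenylated RNA. The authors' tools, per the submitters' processing notes, include featureCounts 1.6.0, HISAT2 2.0.4, edgeR 3.30.3 and FastQC 0.11.4, with GRCm38 and mm10 as builds. Neither annotation release nor strand setting is given in these sources. Of 54132 rows, 24 hold no symbol (0.115% to 0.132% of counts) and were left out.

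The genotype test was edgeR 4.0.16's quasi-likelihood test in R 4.3.3 (limma 3.58.1), with TMM scaling, filterByExpr defaults and Benjamini-Hochberg adjustment over 16051 genes, two-sided, at an adjusted p of 0.05. SE is the absolute log2 difference over the square root of F. The quasi-likelihood test was tried on simulated counts with sex in the model, which the genotype test reported here leaves out. Libraries of 1 genotype differed beyond sampling noise (chi-square per degree of freedom 7.79 to 34.8). Log2 CPM used a prior count of 2. The members and lists were chosen with earlier results of these data known. Named genes are the 10 members, Rbpms, up to 4 genes per pathway list by smallest adjusted p if the mean CPM reached 1, and the 3 genes most like each called member; some genes this rule takes are not reported here. Gene positions and exon lengths are from GENCODE M21 (GRCm38), matched by symbol. Alternatives covered other scalings, filters and tests (DESeq2 1.42.0, limma-voom), sex as a covariate, males only, a threshold of 0.01, and each library left out.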

Additional observations from a re-analysis of the deposited data

Results flagged for a closer look

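In 94 groups of 4 libraries checked for a value far from the rest, 4 stood apart, and chance gives about 1 in 20 such groups. Dusp14 was at 0.774 CPM in cKO replicate 4, against 0.44 to 0.475 CPM in the other cKO libraries. Dusp23 was at 5.58 CPM in cKO replicate 3, the female, against 9.46 to 10.2 CPM in the other 3. Gab2 was at 82.5 CPM in the same library, against 72.9 to 74.3 CPM in the others. Hbegf was at 32.6 CPM in control replicate 4, against 21.2 to 22.8 CPM in the other controls.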

How the results depend on the processing

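The 10 genes were chosen with the genotype contrast known, and the alternative fits reuse it. Their calls below therefore describe dependence on processing only. Dusp4, Dusp8 and Dusp26 were past the threshold as higher in all 18 alternative fits and Dusp6 in 17, with log2 differences of 0.70 to 0.93, 0.37 to 0.50, 3.35 to 3.90 and 0.46 to 0.68. The other 6 genes were past it in 0 fits, and with total counts only, a scaling that raised the median of all genes, Dusp1, Dusp5, Dusp10 and Dusp16 turned from just below 0 to 0.02, 0.05, 0.05 and 0.01. With single libraries left out, the sign of Dusp1 (-0.16 to 0.01), Dusp5 (-0.13 to 0.04) and Dusp10 (-0.09 to 0.05) also varied. No paired analysis was possible because no label pairs libraries across genotypes. At an adjusted p under 0.01, 2 of the 10 genes, 15 pathway genes higher and 7 lower, and 808 genes higher and 817 lower overall were past the threshold. Scaling by total counts only moved the median of all genes to 0.088, with 1992 higher and 1021 lower (66.1% of calls higher against 50%), and 9 pathway genes lower. Males only gave 11 pathway genes lower, and leaving out single libraries gave 12 to 20. For sex, the count over all genes was 78, with 791 without a filter, 363 with DESeq2 and 51 to 110 with single libraries left out, and that over the 10 genes was 3 without a filter and 1 with DESeq2. The relation to the immediate-early genes passed the threshold for 0 of the 10 genes in any of 12 alternatives. The sign of r held in all of them for Dusp5 (0.38 to 0.82), Dusp10 (0.30 to 0.67), Dusp8 (-0.66 to -0.04) and Dusp14 (-0.57 to -0.08), and changed for the other 6 genes. With total counts only r was 0.13 for Dusp1 and 0.53 for Dusp16. With Fos, Egr1, Junb, Ier2 and Atf3 only, r was 0.44 for Dusp1, 0.13 for Dusp16, -0.22 for Dusp26 and 0.0483 for Dusp27. With single libraries left out, r ran from -0.37 to 0.44 for Dusp1, -0.67 to 0.35 for Dusp4, -0.12 to 0.42 for Dusp6, -0.96 to 0.39 for Dusp16, -0.17 to 0.76 for Dusp26 and -0.74 to 0.0307 for Dusp27. The cause was not tested. Of 37 named genes outside the 10, Rbpms included, 24 stayed on the same side of the threshold in every alternative and 0 reversed. Depth limits Dusp14 most, with 37 counts over the control libraries and 51 over the cKO libraries.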
